A study of Mus musculus with 15 samples.

Results

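The genes described here are a set of 32 that encode enzymes and regulators of cholesterol and fatty acid synthesis, listed by name. Each gene was read through 1 probe set annotated to it alone, the one with the highest mean signal over all 15 arrays. That gave 31 of the 32 genes, since Acat2 had no such probe set. All 31 passed the filter on dim signals and stood among 12400 genes tested, of 18193 with a usable probe set. The arrays carry RNA from mouse embryonic stem (ES) cells and from cells differentiated from them towards paraxial mesoderm, the tissue that forms the somites, in 5 groups of 3 arrays labelled as biological replicates.

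The ES cells were of line E14, strain 129P2, kept in DMEM with 15% fetal bovine serum, LIF and the inhibitor pair called 2i (CHIRON99021, which inhibits GSK3, and PD0325901, which inhibits MEK), on mitomycin-C inactivated mouse embryonic fibroblasts and then for 1 passage without them, and they were not sorted. All differentiated cells spent 2 days in serum-free N2B27 with 1% KSR (a serum replacement), 0.1% bovine serum albumin and BMP4 at 10 ng/ml, and then moved to DMEM with 15% KSR, 0.5% DMSO and the BMP receptor inhibitor LDN193189 at 0.1 µM. The RDL medium added to this Rspo3, a secreted enhancer of Wnt signalling, at 10 ng/ml, and the CDL medium added CHIRON99021 at 1 µM. Cells of day 4 were also line E14 and were sorted for the reporter Msgn1-repV, active in presomitic mesoderm. Cells of day 6 were of line CK35, strain 129Sv, and were sorted for Pax3-GFP. A difference between day 6 and the other days therefore cannot be told apart from one of line, strain or reporter. A difference from ES cells cannot be told apart from sorting or from the changes of medium and culture. Those changes include the loss of serum, LIF and the MEK inhibitor and the addition of KSR. Apart from the labels "biological rep", nothing in the labels used here says that the 3 arrays of a group came from separate cultures. The p-values therefore set a difference against the spread between arrays of a group, with 1 estimate for each gene shared by all 5 groups.

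Cells build cholesterol from acetyl-CoA in a long series of steps: the mevalonate steps make isoprenoid units, squalene is formed from them, and the sterol steps close its rings and trim the product to cholesterol. Fatty acids are made from the same acetyl-CoA by ATP citrate lyase, acetyl-CoA carboxylase and fatty acid synthase, and are then lengthened and desaturated. The SREBP transcription factors switch on many of these genes when membrane sterol is low: SCAP carries SREBP to the Golgi for cleavage, and INSIG proteins hold both in the endoplasmic reticulum when sterol is plentiful. Cholesterol is also needed for Hedgehog signalling, which patterns the somites.

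SREBP binds a short promoter element and usually acts with the factors NF-Y and Sp1 bound close by, so the sequence just before the start of transcription is shown for 4 genes of the sterol series. The promoters come from RefSeq (build GRCm38.p6) and are printed 5′ to 3′ on the strand of the gene, ending at the base before its annotated start or, for Hsd17b7, before its annotated gene body. Capitals mark the sterol regulatory element TCACNCCAC and the NF-Y box CCAAT, which reads ATTGG where it lies on the other strand. The E-box CACGTG is capitalised as well. Hmgcs1 is shown as the one gene of the set that held an exact match to the sterol element and rose at day 4 in both media. Hsd17b7, Sc5d and Cyp51 were chosen after their values were seen, as the genes of the sterol steps with the largest rises at day 4.
Hmgcs1, chr13:119690101-119690350, plus strand: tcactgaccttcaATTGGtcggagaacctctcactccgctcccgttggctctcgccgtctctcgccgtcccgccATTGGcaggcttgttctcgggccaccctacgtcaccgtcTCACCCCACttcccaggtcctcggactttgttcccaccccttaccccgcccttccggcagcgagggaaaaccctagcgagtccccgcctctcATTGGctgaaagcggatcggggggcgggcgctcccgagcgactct
Hsd17b7, chr1:169969243-169969455, minus strand: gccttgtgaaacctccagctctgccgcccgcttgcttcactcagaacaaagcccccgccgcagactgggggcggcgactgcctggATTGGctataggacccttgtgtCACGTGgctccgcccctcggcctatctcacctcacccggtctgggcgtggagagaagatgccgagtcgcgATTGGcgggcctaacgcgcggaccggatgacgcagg
Sc5d, chr9:42264301-42264550, minus strand: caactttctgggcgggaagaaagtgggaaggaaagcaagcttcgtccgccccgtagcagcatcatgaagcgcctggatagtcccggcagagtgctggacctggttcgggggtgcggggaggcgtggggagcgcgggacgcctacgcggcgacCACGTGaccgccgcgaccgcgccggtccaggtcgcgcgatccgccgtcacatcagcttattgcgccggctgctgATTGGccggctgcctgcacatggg
Cyp51, chr5:4104698-4104947, minus strand: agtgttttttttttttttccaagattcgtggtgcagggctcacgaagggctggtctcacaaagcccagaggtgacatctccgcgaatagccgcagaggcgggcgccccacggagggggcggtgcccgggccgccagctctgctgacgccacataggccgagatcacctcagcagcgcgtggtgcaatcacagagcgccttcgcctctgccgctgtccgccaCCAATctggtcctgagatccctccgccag
The sterol element of Hmgcs1 began 137 bases before the start, between NF-Y boxes at 176 and 45 bases before it. Hsd17b7 and Sc5d each held 1 E-box and at least 1 NF-Y box, and Cyp51 held an NF-Y box 29 bases before the start. Over windows of 300 bases, from 250 before to 50 after the start, 25 of the 32 genes had a promoter in the table. The sterol element, searched on both strands, was in 1 of these 25 genes (4%) and in 1.44% of all 27025 genes with a promoter. Only exact matches to TCACNCCAC were counted, so a site with other letters or outside the window was not found. The NF-Y box was in 20 (80%) against 41.1% of all genes, the Sp1 box GGGCGG was in 21 (84%) against 38.2%, and the E-box was in 5 (20%) against 8.09%. A gene counted when any of its promoters matched, with 33 promoters for the 25 genes and 32851 for all genes. All genes here were not limited to those tested on the arrays, and base content was not matched. These matches describe letters in a window; binding was not measured.

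The presomitic and pluripotency markers followed the labels. The summed signal of 6 presomitic markers (Msgn1, Tbx6 and others) was 175 to 192 in ES cells, 6635 to 8448 over both media at day 4 and 277 to 903 at day 6, and that of 8 pluripotency markers (Nanog, Zfp42 and others) was 34053 to 34288 in ES cells and 482 to 1568 at day 6. The first array of CDL day 4 stood apart: its pluripotency sum was 14044, where the other CDL day 4 arrays began at 3209, and over 56 genes bright in ES cells it held a median 18.7% of the ES signal. Markers of the Pax3 sort and somites (6 genes) summed to 275 to 321 in ES cells. In CDL the sum was 1705 to 2346 at day 4 and 4917 to 7286 at day 6. In RDL it was 3805 to 3938 at day 4 and 2888 to 4273 at day 6, so the day 6 range spanned that of day 4. The sum of 9 fibroblast markers was 229 to 250 in ES cells, 783 to 874 in RDL day 4, 928 to 1146 in CDL day 4, 7789 to 10144 in RDL day 6 and 5228 to 7107 in CDL day 6. The sum of 10 endoderm markers was 197 to 229 in ES cells and 329.7 to 540.3 at day 6, that of 6 neural crest markers 271 to 313 and 581 to 1214, and that of 7 neural markers 425 to 576 and 151 to 171. The first array of RDL day 6 correlated least with its own group (mean r = 0.978), and it was the lowest of its group in 7 of the 8 fatty acid genes of the set and the highest in 10 of the 17 sterol genes. Among all genes it was the lowest in 43.7% and the highest in 44.0%. The second array of CDL day 6 was the highest of its group in 8 of 8 fatty acid genes and the lowest in 10 of 17 sterol genes, against 49.4% and 33.8% of all genes. Fits were also run without each of these arrays in turn. Values without an array are given for some results only. What set these arrays apart was not tested.

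Against ES cells, most genes of sterol synthesis were higher at day 6, with 13 of 17 called higher in RDL and 14 in CDL, while at day 4 genes of sterol synthesis were called in both directions, and those of fatty acid synthesis were called in both directions at each day. A gene was called when its adjusted p was under 0.05 in limma, with Benjamini-Hochberg adjustment over the 12400 genes. In RDL day 4, 13 of the 31 genes rose and 7 fell, where 27.6% of all genes tested rose and 29.5% fell. In CDL day 4, 10 rose and 7 fell, where 26.6% of all genes rose and 29.6% fell. In RDL day 6, 16 rose and 6 fell, where 28.3% rose and 33.3% fell. In CDL day 6, 17 rose and 6 fell, where 27.8% rose and 33.3% fell. The 4 comparisons use the same 3 ES arrays and are not independent of each other. At day 6 and in RDL day 4 the share of the set called higher was above that of all genes. In CDL day 4 both counts were near the shares of all genes, and 11 genes fell when only the groups compared were fitted. Without the first CDL day 4 array the CDL day 4 counts stayed at 10 higher and 7 lower. Of 17 sterol genes, 9 rose and 3 fell in RDL day 4, 7 and 4 in CDL day 4, 13 and 1 in RDL day 6, and 14 and 1 in CDL day 6. Of 8 fatty acid genes, 3 rose and 3 fell in RDL day 4, 2 and 2 in CDL day 4, and 2 and 4 in each medium at day 6. The median log2 difference of the sterol genes was 0.34, 0.27, 0.56 and 0.46 in these 4 comparisons, that of the fatty acid genes 0.02, 0.08, -0.24 and -0.22, and that of all genes lay between -0.04 and -0.01. Log2 differences are differences of log2(signal + 12.6), so they understate the change of dim genes, and ± is the standard error of limma's fit. In sorted or mixed cells, fewer cells of a type and less RNA per cell cannot be told apart.

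**Figure D1:**
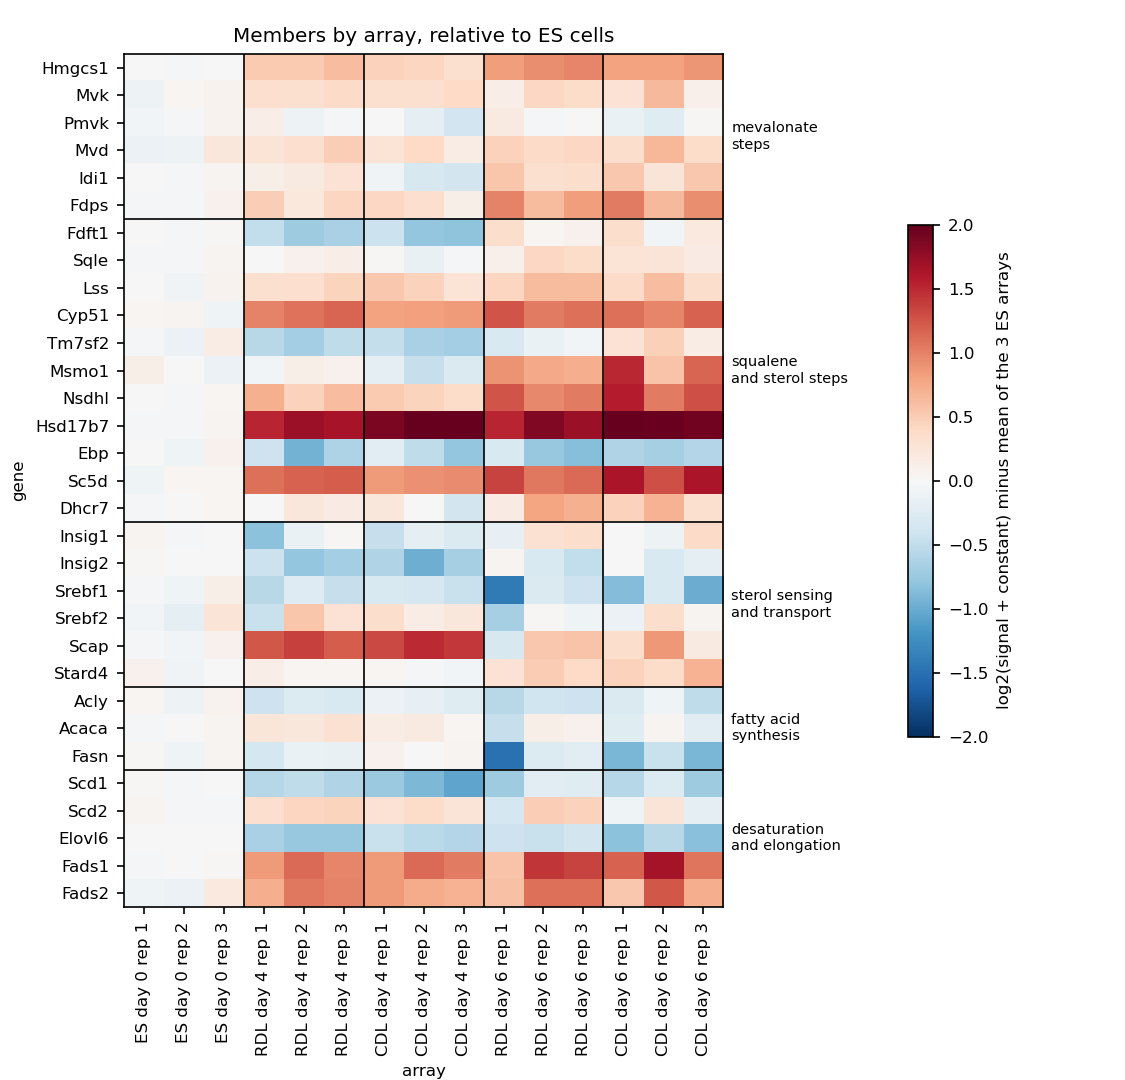
Log2(signal + 12.6) of the 31 genes minus the mean of the 3 ES arrays, with genes in rows grouped by role and the 15 arrays in columns. The colour scale ends at -2 and 2, which Hsd17b7 passes on arrays of CDL; the mevalonate and sterol rows are mostly above the ES level at day 6, and Ebp, Scd1 and Elovl6 are below it in every differentiated group.

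Of the mevalonate genes 5 of 6 rose at day 6 in each medium, and Hmgcs1, which encodes HMG-CoA synthase, the enzyme that feeds the pathway, rose in every comparison with ES cells. Its signal was 2197, 2150.2 and 2180.1 in ES cells, 3124, 3129 and 3362 in RDL day 4 and 3013, 2934 and 2716 in CDL day 4. The day 6 signal was 3887, 4164 and 4293 in RDL and 3828, 3817 and 4002 in CDL. The 3 bands did not overlap: every day 4 array lay above every ES array and below every day 6 array. The log2 difference from ES cells was 0.56 ± 0.06 (adjusted p = 1.02e-06) in RDL day 4 and 0.41 ± 0.06 (adjusted p = 3.38e-05) in CDL day 4. At day 6 it was 0.91 ± 0.06 (adjusted p = 2.67e-09) in RDL and 0.83 ± 0.06 (adjusted p = 8.34e-09) in CDL, which are 1.88-fold and 1.78-fold.

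Of the 6 mevalonate genes tested, 4 rose at day 4 in RDL, and 2 rose and 1 fell at day 4 in CDL. Fdps, farnesyl diphosphate synthase, which makes the branch point of sterols and isoprenoids, differed from ES cells by 0.38 ± 0.12 and 0.28 ± 0.12 at day 4 in RDL and CDL and by 0.82 ± 0.12 and 0.87 ± 0.12 at day 6. The CDL day 4 value was not called (adjusted p = 0.0600) and the others were (adjusted p = 0.0147, 2.31e-05 and 1.25e-05). The smaller rises were those of Mvk, mevalonate kinase, at 0.31 to 0.35 in the 4 comparisons, and Mvd, mevalonate diphosphate decarboxylase, at 0.27 to 0.46, which was not called in CDL day 4 (adjusted p = 0.0686). Idi1, which interconverts the isoprenoid units, gave 769, 747 and 798 in ES cells, 839.9, 879 and 941 in RDL day 4 and 731, 615 and 595 in CDL day 4. Its RDL day 4 arrays were above and its CDL day 4 arrays below those of ES cells, without overlap. The difference was 0.20 ± 0.10 (adjusted p = 0.124) in RDL and -0.25 ± 0.10 (adjusted p = 0.04999) in CDL, and at day 6 Idi1 rose by 0.41 and 0.44 (adjusted p = 0.00293 and 0.00163). Pmvk, phosphomevalonate kinase, was not called, with differences from -0.19 to 0.04. The fall of Idi1 in CDL day 4 sat at the threshold and was lost under 11 alternatives (adjusted p up to 0.179, where "up to" gives the highest over all alternatives here and throughout), among them leaving out any 1 ES array or the second or the third CDL day 4 array. The calls of Fdps and Mvd in RDL day 4 were lost without the first RDL array and without ES replicate 1 or 2 or the third RDL array, respectively (adjusted p up to 0.0625 and 0.0759). The calls of Mvk were lost without ES replicate 1 in each of the 4 comparisons, and also without the first or the third RDL day 4 array, the second or the third CDL day 4 array, the second ES array or the second or the third RDL day 6 array, and the second CDL day 6 array, in the comparison of that group (adjusted p up to 0.0963, 0.0959, 0.135 and 0.130).

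The largest rise of the set in each of the 4 comparisons was that of Hsd17b7, the ketoreductase that acts late in the removal of the sterol's methyl groups. Its signal was 112, 112 and 119 in ES cells, 351, 405 and 384 in RDL day 4 and 457, 572 and 521 in CDL day 4. At day 6 it was 351, 445 and 408 in RDL and 517, 489 and 472 in CDL. No differentiated array came near the ES arrays, and at each day the CDL arrays were all above the RDL arrays. The difference was 1.63 ± 0.11 in RDL day 4, 2.05 ± 0.11 in CDL day 4, 1.70 ± 0.11 in RDL day 6 and 1.99 ± 0.11 in CDL day 6, or 3.09-fold, 4.15-fold, 3.24-fold and 3.97-fold (adjusted p = 3.83e-09, 3.18e-10, 1.72e-09 and 3.16e-10). The probe set used was of the type that can also match other transcripts, and the 3 other probe sets of Hsd17b7 gave smaller differences, of 1.24, 0.93 and 0.19 in RDL day 4 and 1.48, 1.30 and 0.35 in CDL day 4.

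Sc5d and Cyp51 also rose in all 4 differentiated groups. Sc5d, the sterol C5 desaturase near the end of the series, gave 144, 158 and 158 in ES cells, 342, 363 and 372 in RDL day 4 and 287, 299.98 and 307 in CDL day 4. By day 6 the RDL arrays gave 409, 334 and 352 and the CDL arrays 500.5, 393 and 500.003. Every differentiated array was above every ES array, and at day 4 the RDL arrays were all above the CDL arrays. The differences were 1.16 ± 0.11, 0.90 ± 0.11, 1.18 ± 0.11 and 1.51 ± 0.11 in RDL day 4, CDL day 4, RDL day 6 and CDL day 6 (adjusted p = 1.85e-07, 3.61e-06, 1.26e-07 and 7.43e-09). The other probe set of Sc5d that passed the filter gave 0.35 and 0.13 at day 4, the latter not called, and 1.22 and 1.41 at day 6. Cyp51, the lanosterol demethylase, gave 283, 287 and 258 in ES cells, 673, 581 and 605 in RDL day 6 and 603, 552 and 641 in CDL day 6, with the day 4 arrays between 493 and 634. Its arrays were again apart from those of ES cells in each group, with differences of 1.08 ± 0.09, 0.83 ± 0.09, 1.13 ± 0.09 and 1.08 ± 0.09 (adjusted p = 5.96e-08, 1.49e-06, 2.98e-08 and 5.07e-08).

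Not all sterol steps moved this way. At day 4, of 11 squalene and sterol genes, 5 rose (Lss, Cyp51, Nsdhl, Hsd17b7 and Sc5d) and 3 fell (Fdft1, Tm7sf2 and Ebp) in each medium. Fdft1, squalene synthase, the first enzyme committed to sterols, gave 1417, 1401 and 1447 in ES cells, 1008, 867 and 906 in RDL day 4 and 1055, 825 and 809 in CDL day 4. The day 6 signal was 1819, 1454 and 1509 in RDL and 1823, 1361 and 1638 in CDL. The day 4 arrays were all below those of ES cells and the day 6 arrays overlapped them or lay above. The difference was -0.61 ± 0.12 (adjusted p = 0.000491) in RDL day 4 and -0.67 ± 0.12 (adjusted p = 0.000244) in CDL day 4, and was not called at day 6 (0.16 and 0.17, adjusted p = 0.292 and 0.264). Fdft1 had 4 probe sets, and the one used can also match other transcripts, like that of Hsd17b7. Both day 4 calls of Fdft1 held under all 17 alternatives, averaging of its probe sets among them. Tm7sf2, a sterol C14 reductase, gave 166, 155 and 189.7 in ES cells, 112, 101 and 116 in RDL day 4, 118, 104 and 102 in CDL day 4, 135, 153 and 162 in RDL day 6 and 211, 242 and 189.9 in CDL day 6. It fell in both media at day 4, with differences of -0.58 ± 0.12 (adjusted p = 0.000435) and -0.60 ± 0.12 (adjusted p = 0.000320), was not called in RDL day 6 (-0.17) and rose in CDL day 6 (0.31 ± 0.12, adjusted p = 0.0297). Ebp, the sterol isomerase, gave 763, 711 and 802 in ES cells, 567, 389 and 488 in RDL day 4 and 654, 528 and 439 in CDL day 4. The day 6 signal was 609, 444 and 415 in RDL and 493, 476 and 499.6 in CDL, and all differentiated arrays were below those of ES cells. It was the one gene of the sterol series that fell in all 4 comparisons, with differences of -0.66, -0.50, -0.64 and -0.62 (SE 0.16, adjusted p = 0.00249, 0.0163, 0.00290 and 0.00364). The Ebp call in CDL day 4 was lost without the third array of ES cells or of CDL day 4 (adjusted p up to 0.0941), and the rise of Tm7sf2 in CDL day 6 was lost without the first or second array of either group (adjusted p up to 0.124).

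At day 6, 8 of the 11 squalene and sterol genes rose in RDL and 9 in CDL, and Ebp fell in both. Nsdhl, the decarboxylase that acts before Hsd17b7 in each round of demethylation, gave 360.2, 359.6 and 372 in ES cells, 606, 505 and 562 in RDL day 4, 529.9, 502 and 474 in CDL day 4, 892, 724 and 764 in RDL day 6 and 1101, 759 and 907 in CDL day 6. ES, day 4 and day 6 arrays formed 3 separate bands, with differences from ES cells of 0.59 and 0.45 at day 4 and 1.09 and 1.29 at day 6 (SE 0.12, adjusted p = 0.000654, 0.00572, 1.24e-06 and 1.78e-07). Msmo1, the sterol methyl oxidase of the same complex, gave 1110.1, 1023 and 939 in ES cells, 985, 1107 and 1087 in RDL day 4 and 899, 739.6 and 830.5 in CDL day 4. At day 6 it gave 1912, 1728 and 1691 in RDL and 2917, 1530.3 and 2299.7 in CDL, where the second array was the lowest. Its day 4 differences were not called (0.05 and -0.31) and its day 6 differences were 0.79 ± 0.17 (adjusted p = 0.000604) and 1.08 ± 0.17 (adjusted p = 3.11e-05). Its other probe set, with a mean signal of 34.1, fell in both media at day 4 (-0.34 and -0.52) and gave -0.25 and 0.08 at day 6, neither called. Averaging both probe sets took the Msmo1 rise in RDL day 6 below the threshold (0.27).

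The remaining sterol genes changed less. Sqle, squalene epoxidase, a control point of the pathway, gave 815, 812 and 867 in ES cells, 829, 883 and 907 in RDL day 4 and 843, 745 and 814 in CDL day 4. By day 6 the RDL arrays gave 894, 1109 and 1073 and the CDL arrays 1008, 995 and 932. The day 4 arrays overlapped those of ES cells and the day 6 arrays were all above them, with differences of 0.29 ± 0.09 (adjusted p = 0.0116) in RDL day 6 and 0.23 ± 0.09 (adjusted p = 0.0394) in CDL day 6. The RDL call was lost without the second RDL day 6 array (adjusted p = 0.0604) and the CDL call without the first or second array of either group (adjusted p up to 0.106). Lss, which closes the sterol rings, rose by 0.37 to 0.56 in the 4 comparisons. Dhcr7, the last reductase of one arm of the series, rose at day 6 (0.56 ± 0.17 in RDL and 0.49 ± 0.17 in CDL, adjusted p = 0.00920 and 0.0189) and was not called at day 4. Both day 6 calls of Dhcr7 were lost without the second array of that group, and the CDL call also without the first ES array (adjusted p up to 0.0509 and 0.0781).

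**Figure D2:**
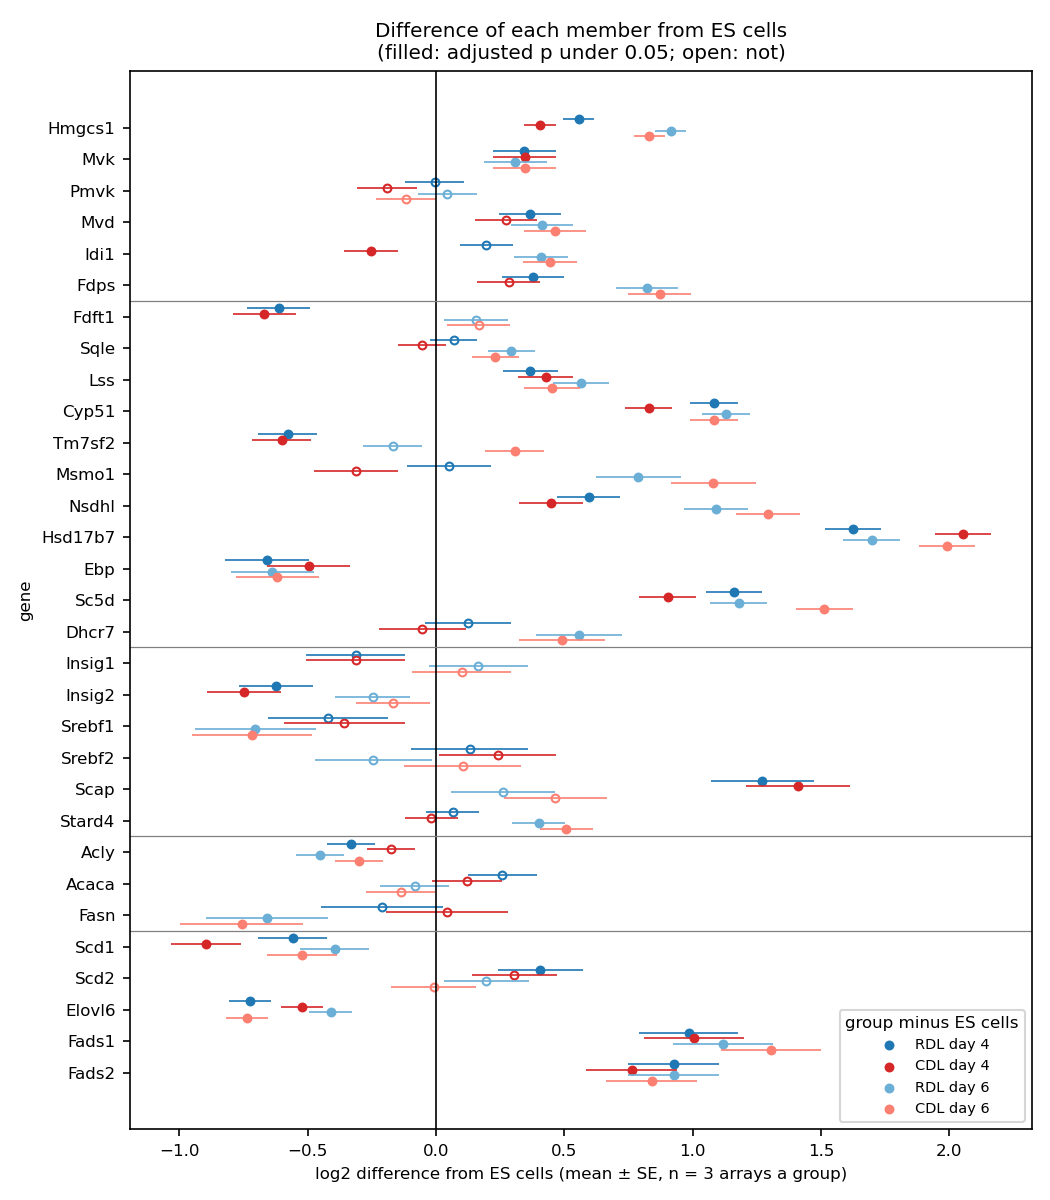
Log2 difference from ES cells with its standard error for the 31 genes, in rows by role, in RDL and CDL at day 4 and day 6, with filled points for an adjusted p under 0.05. Hsd17b7 lies farthest to the right in all 4 groups, and the fatty acid genes Fads1 and Fads2 lie to the right while Scd1 and Elovl6 lie to the left.

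Among the 6 genes of sterol sensing and transport, Scap rose at day 4 and Insig2 fell, and no other gene of the 6 was called at that day. Scap, the escort of SREBP, gave 241, 240.2 and 266 in ES cells, 609, 659 and 591 in RDL day 4 and 642, 721 and 687 in CDL day 4. The day 6 signal was 198, 366 and 375 in RDL and 320.4, 466 and 283 in CDL. The day 4 arrays were all above those of every other group, and the RDL day 6 arrays overlapped those of ES cells. The difference from ES cells was 1.27 ± 0.20 (adjusted p = 5.06e-05) in RDL day 4 and 1.41 ± 0.20 (adjusted p = 1.95e-05) in CDL day 4, or 2.42-fold and 2.66-fold, and at day 6 it was not called (0.26 ± 0.20 and 0.47 ± 0.20, adjusted p = 0.279 and 0.0569). Without the first RDL day 6 array, Scap was called at day 6 as well (0.55 in RDL, adjusted p = 0.00489; adjusted p = 0.00662 in CDL).

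The INSIG pair differed in what was called. Insig1, itself a known SREBP target, gave 597, 561 and 570.2 in ES cells, 321, 523 and 583 in RDL day 4 and 413, 507 and 467 in CDL day 4. At day 6 it gave 511, 716 and 740.2 in RDL and 582, 539 and 752 in CDL. Its arrays spread widely in the differentiated groups, and none of its differences from ES cells was called (-0.31, -0.31, 0.16 and 0.10, SE 0.19). Insig2 gave 179, 176 and 175 in ES cells, 128, 98.1 and 106 in RDL day 4 and 112, 83.3 and 107 in CDL day 4. The day 4 arrays were all below those of ES cells, with differences of -0.62 ± 0.14 (adjusted p = 0.00156) in RDL and -0.75 ± 0.14 (adjusted p = 0.000355) in CDL. At day 6 Insig2 gave 184, 140.4 and 122 in RDL and 175, 140.0 and 154 in CDL and was not called (-0.25 and -0.17), though its other probe set fell there too (-0.61 and -0.51).

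No rise of an SREBP gene was called. Srebf1, the factor tied mostly to fatty acid genes, gave 411, 392 and 452 in ES cells, 279.6, 348 and 301 in RDL day 4 and 337, 329.6 and 303 in CDL day 4. By day 6 the RDL arrays gave 148, 341 and 311 and the CDL arrays 224, 337 and 204. All differentiated arrays were below the ES arrays, and the first array of RDL day 6 was the lowest of all. The differences were -0.42 ± 0.23 and -0.36 ± 0.23 at day 4 (adjusted p = 0.140 and 0.213) and -0.70 ± 0.23 and -0.72 ± 0.23 at day 6 (adjusted p = 0.0162 and 0.0149). The RDL day 6 call was lost without the third ES array. Without the first RDL day 6 array the RDL day 6 value was -0.35 and no longer called (adjusted p = 0.0757), and both day 4 values were called (adjusted p = 0.0192 in RDL and 0.0435 in CDL). The CDL day 6 call was lost without the third ES array or the first or the third CDL day 6 array (adjusted p up to 0.0713). Srebf2, the factor tied mostly to sterol genes, gave 127, 114 and 161 in ES cells, 93.4, 199.9 and 165 in RDL day 4 and 172, 149 and 157 in CDL day 4. The day 6 signal was 78.8, 135 and 124 in RDL and 122, 173 and 139 in CDL. The arrays of all groups overlapped those of ES cells, and no difference was called (0.13, 0.24, -0.24 and 0.10, SE 0.23). Stard4, a carrier of sterol between membranes, rose at day 6, by 0.40 ± 0.10 (adjusted p = 0.00309) in RDL and 0.51 ± 0.10 (adjusted p = 0.000452) in CDL, and not at day 4 (0.07 and -0.02).

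The 3 genes that make saturated fatty acids were lower or not called. Fasn, fatty acid synthase, gave 1351, 1256 and 1379.6 in ES cells, 1038, 1212 and 1198 in RDL day 4 and 1405, 1329 and 1373 in CDL day 4. At day 6 it gave 466, 1098 and 1138 in RDL and 698, 969.7 and 703 in CDL. The day 6 arrays were all below those of ES cells, and the first RDL day 6 array was the lowest of all 15. The differences were -0.66 ± 0.24 (adjusted p = 0.0252) in RDL day 6 and -0.76 ± 0.24 (adjusted p = 0.0119) in CDL day 6, and at day 4 they were -0.21 and 0.04, neither called. The RDL day 4 arrays were nonetheless all below those of ES cells, and that value was called under 1 of 17 alternatives (limma's adjusted p = 0.0237). Without the first RDL day 6 array, the Fasn value in RDL day 6 was -0.25 and not called (adjusted p = 0.0893), and the call was also lost without the first or the third ES array (adjusted p up to 0.0902). Acly, ATP citrate lyase, which supplies the acetyl-CoA of the cytosol, fell in RDL day 4 (-0.33), RDL day 6 (-0.45) and CDL day 6 (-0.30, SE 0.09 in each, adjusted p = 0.00672, 0.000567 and 0.0116). The CDL day 6 call of Acly was lost without the third CDL day 6 array (adjusted p = 0.0768). Acaca, acetyl-CoA carboxylase, was not called in any of the 4, with differences from -0.14 to 0.26.

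Of the 5 desaturases and elongases, Fads1 and Fads2 rose and Scd1 and Elovl6 fell in all 4 comparisons. Fads1, the delta-5 desaturase of polyunsaturated fatty acids, gave 331, 337 and 345 in ES cells, 617, 752 and 708 in CDL day 4 and 781, 1099.5 and 724 in CDL day 6. Every differentiated array was above every ES array, and the differences were 0.98 in RDL day 4, 1.00 in CDL day 4, 1.12 in RDL day 6 and 1.31 in CDL day 6 (SE 0.19, adjusted p = 0.000395, 0.000355, 0.000110 and 2.30e-05). Fads2 (chr19:10062765-10101503), the delta-6 desaturase, lies near Fads1 (chr19:10182877-10196874) and rose by 0.76 to 0.93 (SE 0.18, adjusted p = 0.000275 to 0.00164). The dimmer second probe set of Fads1 rose in RDL day 4 and at day 6 and was not called in CDL day 4 (0.35).

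The stearoyl-CoA desaturases Scd1 (chr19:44394450-44407709) and Scd2 (chr19:44293676-44306864) lie near each other, put the first double bond into saturated fatty acids, and went in different directions in RDL day 4. Scd1 gave 924, 902 and 913 in ES cells, 611, 641 and 596 in RDL day 4 and 541, 485 and 434 in CDL day 4. By day 6 the RDL arrays gave 551, 777 and 771 and the CDL arrays 612, 750.4 and 551. All differentiated arrays were below those of ES cells, and the differences were -0.56, -0.90, -0.40 and -0.52 (SE 0.14, adjusted p = 0.00221, 3.53e-05, 0.0191 and 0.00341). Scd2 gave 3676, 3475 and 3448 in ES cells, 4460.2, 4764 and 4833 in RDL day 4 and 4307, 4578 and 4218 in CDL day 4. The day 6 signal was 2759.8, 4948 and 4849 in RDL and 3328, 4209 and 3084 in CDL. The day 4 arrays were all above those of ES cells, and the day 6 arrays lay on both sides of them. The difference was 0.41 ± 0.17 (adjusted p = 0.0470) in RDL day 4, the only one of the 4 called, against 0.30 in CDL day 4, 0.20 in RDL day 6 and -0.01 in CDL day 6. The RDL day 4 call of Scd2 was lost when any 1 of the 6 arrays compared was left out (adjusted p up to 0.111). It was kept under 8 of 17 alternatives, with limma's adjusted p down to 1.90e-05. Among the 8 were fitting only the groups compared and leaving out both arrays that stood apart. The coefficient of variation of Scd2 was 3.52% in ES cells, 4.23% in RDL day 4 and 29.5% in RDL day 6, and all groups share 1 estimate of spread. The CDL day 4 value of Scd2 was called under 2 of 17 alternatives (adjusted p down to 0.000557). Without the first RDL day 6 array, Scd2 was called in RDL day 6 (0.47, adjusted p = 0.000518) and Scd1 was not (-0.23, adjusted p = 0.0930), a call also lost without the first ES array.

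Elovl6, the elongase that turns palmitate into stearate, gave 2127, 2129.9 and 2161 in ES cells, 1358, 1253 and 1262 in RDL day 4 and 1575, 1469.5 and 1414 in CDL day 4. At day 6 it gave 1604, 1564 and 1652 in RDL and 1205, 1456 and 1191 in CDL. All differentiated arrays were below the ES arrays. The differences were -0.72 ± 0.08, -0.52 ± 0.08, -0.41 ± 0.08 and -0.74 ± 0.08 (adjusted p = 1.46e-06, 5.08e-05, 0.000407 and 1.02e-06), and its other probe sets fell in all 4 comparisons as well.

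**Figure D3:**
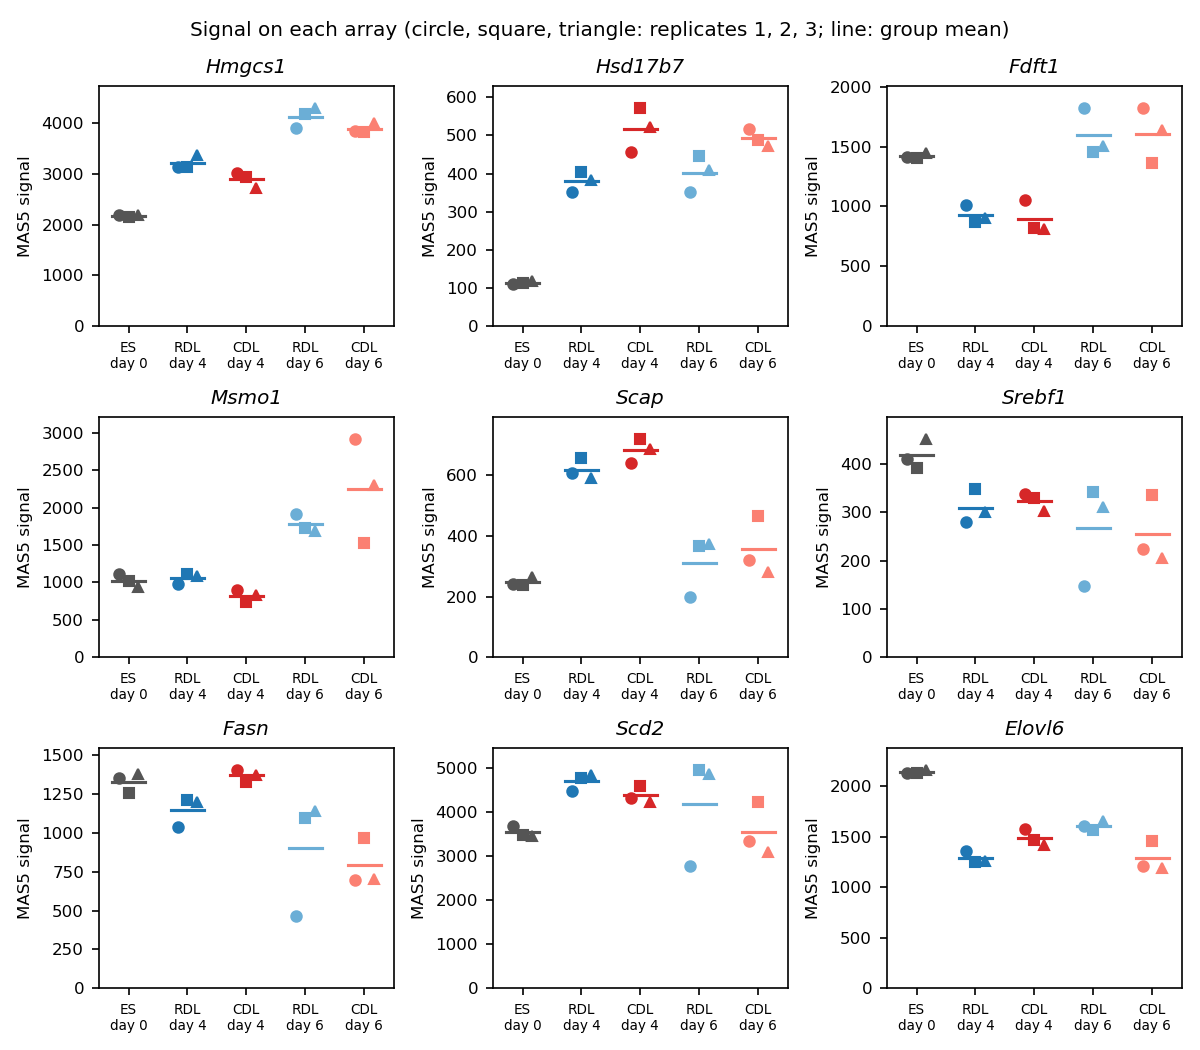
Deposited signal of 9 genes on each of the 15 arrays, with the 5 groups on the horizontal axis, circles, squares and triangles for replicates 1, 2 and 3, and a line at the group mean. Hsd17b7 is lowest on the 3 ES arrays (112 to 119), Scap is highest at day 4, and the first array of RDL day 6 is the lowest of its group for Srebf1, Scap, Fasn and Scd2.

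Between day 4 and day 6, 6 of 17 sterol genes rose in RDL and 11 in CDL. In RDL, 8 of the 31 genes rose and 1 fell from day 4 to day 6, where 13.8% of all genes rose and 17.2% fell. In CDL, 14 rose and 2 fell, where 17.4% of all genes rose and 22.0% fell. No fall of a sterol gene was called. The median difference of the sterol genes was 0.21 in RDL and 0.43 in CDL, and that of the fatty acid genes was -0.06 and -0.17. In RDL the largest rise was that of Fdft1 (0.77 ± 0.12, adjusted p = 0.000191), followed by Msmo1 (0.74 ± 0.17, adjusted p = 0.00290) and Nsdhl (0.50 ± 0.12, adjusted p = 0.00617). In CDL the largest was that of Msmo1 (1.39 ± 0.17, adjusted p = 6.94e-06), followed by Tm7sf2 (0.91 ± 0.12, adjusted p = 1.36e-05) and Nsdhl (0.85 ± 0.12, adjusted p = 6.06e-05). Fdft1 also rose in CDL (0.83 ± 0.12, adjusted p = 6.82e-05). For Fdft1, Msmo1 and Nsdhl the day 6 arrays were all above the day 4 arrays of the same medium, and for Tm7sf2 this held too.

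Hmgcs1 rose by 0.36 ± 0.06 (adjusted p = 0.000314) from day 4 to day 6 in RDL and by 0.43 ± 0.06 (adjusted p = 4.78e-05) in CDL. Averaging its probe sets took both below the threshold (0.26 and 0.29). Idi1, Sqle, Dhcr7, Sc5d and Cyp51 were called in CDL, with 0.70, 0.29, 0.54, 0.61 and 0.25, and not in RDL, where they gave 0.21, 0.22, 0.43, 0.02 and 0.05. Among these 5 the difference between media was itself called for Sc5d, as given with the interaction. The Cyp51 call was lost without any 1 of the CDL day 4 arrays or the first or the third CDL day 6 array (adjusted p up to 0.153), the Sqle call without the second CDL day 4 or the first CDL day 6 array, and the Dhcr7 call without the third CDL day 4 or the second CDL day 6 array (adjusted p up to 0.0971 and 0.0930). Stard4 rose in both media (0.33 ± 0.10 and 0.53 ± 0.10, the RDL call lost without the second or the third RDL day 4 or the second RDL day 6 array, adjusted p up to 0.0846), and Insig2 rose in CDL (0.58 ± 0.14, adjusted p = 0.00499).

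Scap fell from day 4 to day 6 in both media, with differences of -1.01 ± 0.20 (adjusted p = 0.00121) in RDL and -0.94 ± 0.20 (adjusted p = 0.00164) in CDL, with no overlap of arrays. Fasn fell in CDL (-0.80 ± 0.24, adjusted p = 0.0150) and not in RDL (-0.45 ± 0.24, adjusted p = 0.175). The CDL call of Fasn was lost without the first or the third CDL day 6 array (adjusted p up to 0.0596). Elovl6 rose in RDL (0.31 ± 0.08, adjusted p = 0.00848), while its other probe sets were not called there (-0.18 and 0.14), and Scd1 rose in CDL (0.38 ± 0.14, adjusted p = 0.0390), a call lost without any 1 of the second or the third CDL day 4 arrays or the first or second CDL day 6 arrays, and not shared by its other probe set (-0.34, adjusted p = 0.0869). Arrays of RDL with the same replicate number deviated together between the days. With the replicate number as a block, Insig1 (0.48, adjusted p = 0.0274) and Insig2 (0.38, adjusted p = 0.0191) also rose and Acaca fell (-0.34, adjusted p = 0.0475) from day 4 to day 6 in RDL, so that 2 genes fell and not 1. Without the first RDL day 6 array, 13 genes rose in RDL and 1 fell, the added ones being Sqle (0.32), Dhcr7 (0.63), Insig1 (0.64), Scd1 (0.32) and Fads1 (0.41). Markers of other cells also differed between the days. The sum of the 9 fibroblast markers was higher at day 6 in both media, as given above, while 5 of 9 were above the array median on all 3 arrays of each group at day 4, 7 in RDL day 6 and 4 in CDL day 6. Of the 8 tested, 6 rose and 2 fell in RDL, and 5 rose and 2 fell in CDL. The sum of the 10 endoderm markers was 243 to 249 in RDL day 4 and 402 to 540.3 in RDL day 6, and 229.9 to 241 in CDL day 4 and 329.7 to 360.1 in CDL day 6, and 4 of 5 tested rose in RDL and 3 in CDL. The sum of the 6 neural crest markers was 261 to 306 in RDL day 4 and 598 to 1214 in RDL day 6, and 241 to 293 in CDL day 4 and 581 to 839 in CDL day 6, with 1 of 5 tested higher and 1 lower in each medium. The part of these markers in the differences was not tested.

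The CDL and RDL media were compared at each day to set the GSK3 inhibitor against Rspo3. At day 4, 1 of the 31 genes was higher in CDL (Hsd17b7) and 1 lower (Idi1), where 2.90% of all genes were higher and 1.52% lower. At day 6, 1 was higher (Tm7sf2) and 1 lower (Elovl6), where 3.68% of all genes were higher and 3.94% lower. A count of 1 in 31 is close to these shares. Leaving out the first CDL day 4 array changed no call of the set in either comparison. The summed signal of the 6 Pax3 and somite markers differed between the media without overlap, at 3805 to 3938 in RDL and 1705 to 2346 in CDL at day 4, and 2888 to 4273 in RDL and 4917 to 7286 in CDL at day 6. Other sums also did not overlap at day 6. The presomitic sum was 277 to 353 in RDL and 674 to 903 in CDL, and the pluripotency sum 482 to 788 and 912 to 1568. Fibroblast markers summed to 7789 to 10144 in RDL and 5228 to 7107 in CDL. Endoderm markers summed to 402 to 540.3 and 329.7 to 360.1. At day 4 the pluripotency, fibroblast, endoderm and neural sums did not overlap. The remaining sums overlapped. The part of these markers in the medium differences was not tested. Hsd17b7 was 380.2 in RDL and 517 in CDL on average at day 4, a difference of 0.43 ± 0.11 (adjusted p = 0.0353), and its other probe sets were not called (0.25, 0.16 and 0.37). Idi1 was 887 in RDL and 647 in CDL at day 4, a difference of -0.45 ± 0.10 (adjusted p = 0.0201), and its other probe set gave -0.44, not called. At day 6 Tm7sf2 was 150.1 in RDL and 214 in CDL (0.48 ± 0.12, adjusted p = 0.0164), with all CDL arrays above all RDL arrays. Elovl6 was 1606 in RDL and 1284 in CDL (-0.33 ± 0.08, adjusted p = 0.0217), with all CDL arrays below all RDL arrays, and another of its probe sets was also lower (-0.34, adjusted p = 0.0449). The Hsd17b7 call was lost without any 1 of the RDL day 4 arrays or the second or the third CDL day 4 array (adjusted p up to 0.165), and the Idi1 call without the second or the third array of either medium (adjusted p up to 0.0938). The Tm7sf2 call was lost without the second CDL day 6 array and the Elovl6 call without the third RDL or the first or the third CDL day 6 array (adjusted p up to 0.143 and 0.233).

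The other 29 genes at each day gave differences between media that did not pass the threshold. At day 4 these included Msmo1 (-0.36 ± 0.17, adjusted p = 0.313), Scd1 (-0.34 ± 0.14, adjusted p = 0.229) and Cyp51 (-0.25 ± 0.09). At day 6 they included Srebf2 (0.35 ± 0.23), Sc5d (0.33 ± 0.11, adjusted p = 0.0843) and Fasn (-0.10 ± 0.24, adjusted p = 0.896). Leaving out the first RDL day 6 array changed the day 6 comparison for the fatty acid genes: Fasn (-0.51, adjusted p = 0.0116) and Scd2 (-0.48, adjusted p = 0.00392) were then lower in CDL, and Sc5d was higher (0.42, adjusted p = 0.0203). That gave 2 genes higher and 3 lower in CDL at day 6.

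**Figure D4:**
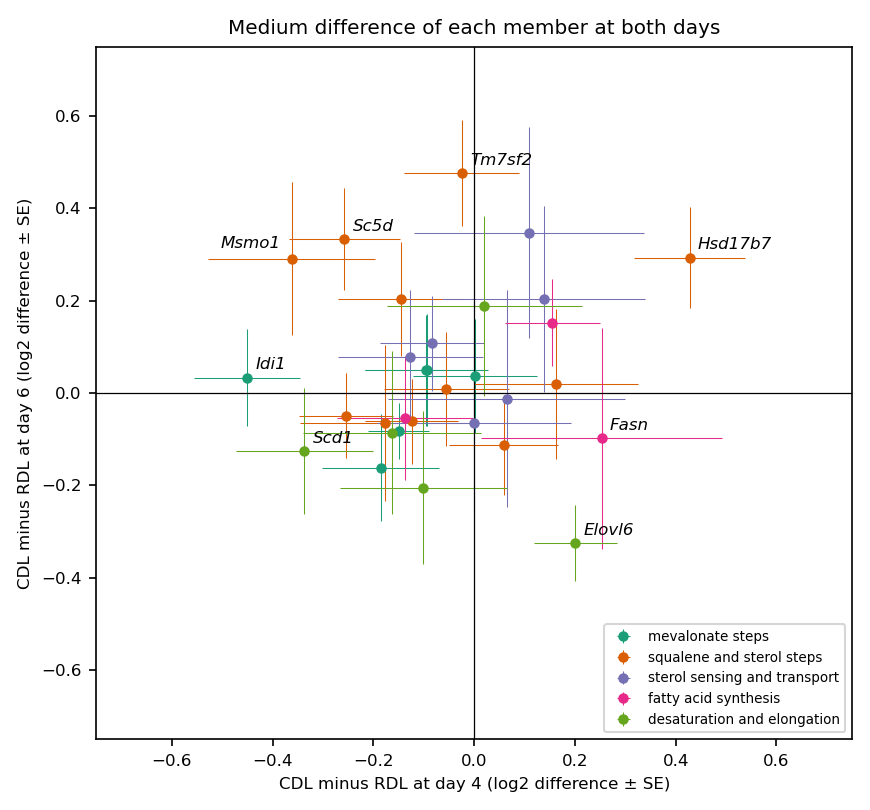
Log2 difference between CDL and RDL at day 4 (horizontal) and day 6 (vertical) for the 31 genes, with standard errors and colours by role. Hsd17b7 is positive on both axes, Sc5d, Idi1 and Msmo1 are negative at day 4 and positive at day 6, and Elovl6 is positive at day 4 and negative at day 6.

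Whether the medium difference changed between the days was tested as an interaction, in which 1 gene of the 31 was higher and 1 lower, where 2.31% of all genes were higher and 3.08% lower. Sc5d was lower in CDL at day 4 (-0.26 ± 0.11) and higher at day 6 (0.33 ± 0.11), neither called alone, and the change was 0.59 ± 0.16 (adjusted p = 0.0358). Elovl6 was higher in CDL at day 4 (0.20 ± 0.08) and lower at day 6, and the change was -0.53 ± 0.12 (adjusted p = 0.0128). The Elovl6 interaction passed under each of the 23 alternatives, though its other probe sets alone gave -0.37 and -0.40, neither called. The Sc5d interaction was lost under 13 of 23 alternatives (adjusted p up to 0.102), among them leaving out any 1 of the 12 differentiated arrays other than the first RDL day 6 or second CDL day 6 array. Leaving out an ES array was not among them. Without the first RDL day 6 array, Fasn (-0.76, adjusted p = 0.00762) and Idi1 (0.55, adjusted p = 0.0221) were called too.

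The spread between replicates of the set was larger at day 6 than in ES cells, a difference not tested. The median coefficient of variation of the 31 genes was 4.86% in ES cells. It was 7.06% in RDL day 4, 7.28% in CDL day 4, 11.8% in RDL day 6 and 13.5% in CDL day 6. Other probe sets of a called gene gave the same call in 21 of 26 cases in RDL day 4, 14 of 22 in CDL day 4, 19 of 25 in each medium at day 6, 2 of 9 from day 4 to day 6 in RDL and 9 of 14 in CDL. Between media it was 0 of 4 at day 4 and 1 of 2 at day 6, and in the interaction 0 of 3. None of these probe sets gave the opposite call. Probe sets of genes not called in a comparison are not in these counts.

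Genes beside these pathways were read from lists of related steps. For these lists the shares of all genes called against ES cells are again 27.6% higher and 29.5% lower in RDL day 4, 26.6% and 29.6% in CDL day 4, 28.3% and 33.3% in RDL day 6, and 27.8% and 33.3% in CDL day 6. Of 7 tested genes of the LXR, efflux and esterification list, 5 fell and 1 rose in each of the 4 comparisons with ES cells. The one that rose was Cyp27a1, a sterol hydroxylase (0.80 to 1.22), and the efflux pump Abcg4 was not called (-0.07 to 0.06); both are named after their values were seen. Abca1, the pump that loads cholesterol onto apolipoproteins, averaged 406 ± 23.0 in ES cells (signal, with the SD over 3 arrays), 64.6 ± 11.9 in RDL day 4, 41.6 ± 43.8 in CDL day 4, 95.3 ± 17.3 in RDL day 6 and 22.5 ± 4.07 in CDL day 6. Its differences were -2.45, -3.24, -1.97 and -3.58 (SE 0.35), and at day 6 it was lower in CDL than in RDL (-1.61 ± 0.35, adjusted p = 0.00795). Without the first CDL day 4 array the CDL day 4 value was -3.86, and Abca1 was lower in CDL than in RDL at day 4 as well (-1.41, adjusted p = 0.000143). Apoe, an apolipoprotein that accepts cholesterol, fell from 968 ± 86.5 in ES cells to 131 ± 17.4 in RDL day 4, 371 ± 105 in CDL day 4, 165 ± 17.9 in RDL day 6 and 249 ± 30.6 in CDL day 6. It was higher in CDL than in RDL at both days (1.40 ± 0.16, adjusted p = 0.000116 and 0.56 ± 0.16, adjusted p = 0.0479), and 1.18 at day 4 without the first CDL day 4 array.

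Receptors for lipoproteins were among the genes that rose at day 4. Of 12 tested genes of the uptake and trafficking list, 6 rose and 3 fell in RDL day 4, 7 and 3 in CDL day 4, 3 and 4 in RDL day 6, and 5 and 3 in CDL day 6, so that the RDL day 6 counts were near the shares of all genes. Vldlr, a receptor for lipoproteins, had 58.2 ± 3.96 in ES cells, 216 ± 20.5 in RDL day 4, 363 ± 99.2 in CDL day 4, 119 ± 11.3 in RDL day 6 and 202 ± 23.2 in CDL day 6. It rose in all 4 comparisons (1.69, 2.37, 0.90 and 1.60, SE 0.16) and was higher in CDL than in RDL at day 4 (0.69 ± 0.16, adjusted p = 0.0181) and day 6 (0.70 ± 0.16, adjusted p = 0.0105). Lrp8, its close relative, had 49.6 ± 10.8 in ES cells, 176 ± 4.71 in RDL day 4 and 335 ± 46.7 in CDL day 4, and fell again to 67.3 ± 22.6 and 97.9 ± 7.25 at day 6. Its difference between day 4 and day 6 was -1.28 ± 0.18 (adjusted p = 5.31e-05) in RDL and -1.65 ± 0.18 (adjusted p = 2.92e-06) in CDL. From day 4 to day 6, 3 of the 12 genes of this list fell in RDL and 6 in CDL, and none rose. Of all genes, 17.2% fell and 13.8% rose in RDL, and 22.0% fell and 17.4% rose in CDL.

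Of 9 tested genes that process or degrade SREBP and its partners, 4 rose and 4 fell in RDL day 4, 3 and 3 in CDL day 4, 2 and 2 in RDL day 6, and 2 and 3 in CDL day 6. Mbtps2, the site-2 protease that makes the second cut in SREBP, fell from 725 ± 69.7 in ES cells to 311 ± 9.43 in RDL day 4 and 337 ± 17.2 in CDL day 4 (-1.19 ± 0.12, adjusted p = 5.89e-07 and -1.07 ± 0.12, adjusted p = 2.10e-06), and rose again from day 4 to day 6 (0.64 ± 0.12, adjusted p = 0.00103 in RDL and 0.73 ± 0.12, adjusted p = 0.000247 in CDL). Pgrmc1, a membrane protein that binds sterol-metabolising enzymes such as Cyp51, rose in all 4 comparisons (0.96, 0.85, 1.21 and 0.96, SE 0.08). Acat1, the thiolase of mitochondria and the 1 gene tested from the list of other sterol steps, fell at day 4 (-0.92 ± 0.12, adjusted p = 5.98e-06 in RDL and -0.71 ± 0.12, adjusted p = 9.91e-05 in CDL) and rose from day 4 to day 6 (1.14 ± 0.12, adjusted p = 2.18e-06 and 0.68 ± 0.12, adjusted p = 0.000300). Of 10 isoprenoid genes, 5 fell and 1 rose in each medium at day 4, among them Fntb, a farnesyltransferase subunit (-1.35 and -1.07), and Coq2, of ubiquinone synthesis (1.24 and 1.18).

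The fatty acid genes outside the set moved both ways as well. Of 25 tested genes of synthesis, elongation and activation, 13 rose and 7 fell in RDL day 4, 10 and 9 in CDL day 4, 12 and 8 in RDL day 6, and 10 and 9 in CDL day 6. Acss2, which makes acetyl-CoA from acetate, fell from 238 ± 14.9 to 35.5 ± 2.33 in RDL day 4, 56.5 ± 19.7 in CDL day 4, 56.5 ± 6.97 in RDL day 6 and 52.7 ± 3.91 in CDL day 6. Me1, malic enzyme, a source of NADPH for fatty acid synthesis, fell at day 6, with differences of -1.99 in RDL and -2.39 in CDL (SE 0.15). Hacd1 and Elovl4, of the elongation cycle, rose in RDL day 4 (1.98 and 1.60), and Elovl4 rose by 2.15 in CDL day 6. Acsl6, a fatty acid activating enzyme, was 111 ± 11.6 in RDL day 4 and 235 ± 19.1 in CDL day 4 against 18.5 ± 1.71 and 17.6 ± 2.11 at day 6, with differences between the days of -1.99 ± 0.09 (adjusted p = 1.67e-10) and -3.04 ± 0.09 (adjusted p = 1.16e-12).

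Of 16 tested genes of fatty acid oxidation, 4 rose and 5 fell in each medium at day 4, 3 and 7 in RDL day 6, and 3 and 8 in CDL day 6, and the day 4 counts were near the shares of all genes. Cpt1a, which admits fatty acids to the mitochondrion for oxidation, fell from 959 ± 80.5 in ES cells to 46.6 ± 5.71 in RDL day 4, 113 ± 101 in CDL day 4, 63.7 ± 1.21 in RDL day 6 and 49.8 ± 2.02 in CDL day 6. The differences were -4.04, -3.24, -3.67 and -3.96 (SE 0.33, adjusted p = 3.48e-08, 5.30e-07, 8.40e-08 and 3.62e-08), and -3.85 in CDL day 4 without its first array. Slc25a20, the carnitine carrier that works beside Cpt1a, and Acadm, the medium-chain dehydrogenase, fell in all 4 comparisons (-1.81 to -2.23 and -1.95 to -2.52). Decr1, a reductase needed to oxidise unsaturated fatty acids, rose in all 4 (0.87 to 1.71). Of 15 glycerolipid and phospholipid genes, 8 rose and 2 fell in RDL day 4, 7 and 2 in CDL day 4, 5 and 3 in RDL day 6, and 6 and 3 in CDL day 6, with Agpat2, an acyltransferase of phosphatidic acid synthesis, lower in all 4 (-1.83 to -1.28).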

How the data were processed

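Gene expression was measured on 15 Affymetrix arrays in 5 groups of 3, grouped by the labels. The deposited values are linear MAS5 signal intensities per probe set, made by the authors, per the submitters' processing notes; with a version not given in the sources used here; array medians lay between 29.4 and 31.2. Labelling ran through 2 amplification cycles, per the labels' protocols. Of 45101 probe sets, 64 controls were left out; 34945 of the others carried 1 gene symbol, 932 several and 9160 none. No 2 arrays were identical. For each gene the brightest such probe set by mean signal was used, and it had to exceed the array's 50th percentile on at least 3 arrays. Log2(signal + 12.6), the added constant being the median over arrays of the 25th percentile, was fitted with limma 3.58.1 in R 4.3.3 (lmFit, eBayes with trend) on all 15 arrays, with 9 comparisons and Benjamini-Hochberg adjustment over 12400 genes. The script was tested on simulated data. Figures and promoter searches used Python 3.11.15 and matplotlib 3.10.9. Gene symbols of all 31 genes matched RefSeq entries. Arrays carry no counts, so precision rests on the number of arrays.

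The genes of the set and the lists of related genes were chosen with earlier results of these data known. Values on each array are given for the 3 largest rises and falls past the threshold in each comparison whose arrays do not overlap, and always for Hmgcs1, Sqle, Insig1, Srebf1, Srebf2, Fasn, Scd1 and Scd2; other genes are given by differences or counts. From each list of related genes at most 3 per comparison were named. Same-numbered arrays of RDL day 4 and RDL day 6 deviated together over all genes (r = 0.28, 0.26 and 0.22), which is how the replicate numbers were taken to pair those groups. The rule was that r exceeded 0.1 for every replicate number. This also held for RDL day 4 and CDL day 6, which were not compared, and for no other pair of groups. The media at day 6, which were compared, failed the rule through a single replicate number. Between RDL day 6 and CDL day 6, r was 0.61, 0.59 and -0.24, in order of replicate number.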

Additional observations from a re-analysis of the deposited data

Results flagged for a closer look

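The change of the medium difference between the days passed the interaction test in limma for 2 genes of the set. For Sc5d the CDL minus RDL difference was -0.26 at day 4 and 0.33 at day 6, a change of 0.59 (adjusted p = 0.0358), and it was lost under 13 of 23 alternatives (adjusted p up to 0.102). For Elovl6 it was 0.20 at day 4 and -0.33 at day 6, a change of -0.53 (adjusted p = 0.0128), which passed under each of the 23. No group of 4 or more arrays was present, so no array was tested for standing apart within its group. The 2 arrays said here to stand apart, the first of CDL day 4 and the first of RDL day 6, were picked from their values without a test.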

How the results depend on the processing

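Of 113 called differences of the set, 77 kept their call and direction under every alternative tried, 36 lost the call under at least 1, and 0 reversed. The alternatives were another constant, filter, scaling, probe set rule or variance model, and a replicate block. Fits also left out single arrays of the groups compared or both arrays that stood apart, or used only the groups compared. Other scalings moved the median of all genes by less than 0.1. Counts of called genes moved beyond 1.5 times as follows. With only the groups compared, 11 genes fell in CDL day 4 against ES cells, and 0 were higher between media at day 4, 0 higher and 0 lower between media at day 6, and 0 higher in the interaction. Averaging probe sets gave 0 lower between media at day 4 and 2 higher at day 6. Without both arrays that stood apart, 13 rose between days in RDL, 2 were lower between media at day 4, 2 were higher and 3 lower at day 6, and the interaction gave 2 higher and 2 lower. With the replicate number as a block, 2 genes fell between days in RDL and 2 were higher in the interaction (Idi1 added, adjusted p = 0.0493); the block also added Fdps in CDL day 4 (0.0264), Scap in CDL day 6 (0.0335) and Insig1 between days in CDL (0.0443), and ended no call. Leaving out 1 array at a time of the groups compared gave 10 to 12 higher and 7 lower in RDL day 4, 9 to 11 and 5 to 7 in CDL day 4, 13 to 18 and 4 to 6 in RDL day 6, 13 to 18 and 4 to 6 in CDL day 6, 5 to 13 and 1 to 2 between days in RDL, 11 to 13 and 1 to 4 between days in CDL, 0 to 1 and 0 to 1 between media at day 4, 1 to 2 and 0 to 3 at day 6, and 0 to 3 and 1 to 2 in the interaction. Arrays of other groups enter the shared spread and can move these counts as well. Without the first RDL day 6 array, 14 were higher and 8 lower in RDL day 4, 12 and 8 in CDL day 4, and 14 and 5 between days in CDL. The limits are 3 arrays a group, a change of line, strain and reporter at day 6, and signals near background, where the added constant shrinks differences; where a call was lost, the cause was not tested.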
